A study of Mus musculus with 6 samples.

Results

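The D and E cyclins and their inhibitors control how a cell leaves the G1 phase and begins to copy its DNA. D cyclins (Ccnd1, Ccnd2, Ccnd3) activate the kinases CDK4 and CDK6, and E cyclins (Ccne1, Ccne2) activate CDK2. Both kinds of kinase phosphorylate the retinoblastoma family of pocket proteins, which otherwise hold the E2F transcription factors in check, and the E cyclin genes are themselves targets of E2F. The INK4 proteins (encoded by Cdkn2a, Cdkn2b, Cdkn2c and Cdkn2d) bind CDK4 and CDK6 and keep them from D cyclins, while Cdkn1b encodes p27Kip1, which inhibits cyclin E with CDK2. In marrow stromal cultures these genes set the balance between growth and exit from the cycle before differentiation. The 10 genes were taken by symbol from the expression table, where all 10 were found among 18853 genes, and all 10 passed the filter on low counts.

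RNA was sequenced from mouse BMSCs, the adherent stromal cells of bone marrow, grown in αMEM with 10% serum. There were 3 HRP2-KO samples, numbered 6, 7 and 44, and 3 WT samples, numbered 10, 11 and 12. HRP2, also called HDGFR2 and listed as Hdgfl2, is a chromatin reader of the hepatoma-derived growth factor family. No source used here gives the allele, the strain, the age or whether samples came from separate animals, so the p-values refer only to the scatter among these 6 libraries, which may be technical. No batch is labelled, and an effect of batch cannot be told apart from genotype.

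Levels are given as normalised CPM, which are estimated counts scaled to a common library total with TMM factors, and a fold change is that of HRP2-KO over WT fitted by edgeR's quasi-likelihood test with Benjamini-Hochberg adjustment over 13696 tested genes. Libraries held 20184500 to 20680800 counts. Over all tested genes 1 passed an adjusted p of 0.05, Igf2, and it was lower in HRP2-KO. Hdgfl2 was at 6.59, 5.56 and 11.8 CPM in HRP2-KO libraries 6, 7 and 44, against 51.4, 56.2 and 58.2 CPM in WT libraries 10, 11 and 12. HRP2-KO replicate 7 stood apart from the other HRP2-KO libraries in macrophage RNA. The 15 macrophage markers summed to 1252 and 2608 CPM in HRP2-KO replicates 6 and 44 and to 14023 CPM in HRP2-KO replicate 7, against 9812 to 25015 CPM in WT. The 12 stromal markers summed to 22566 to 29075 CPM in HRP2-KO and 5700 to 10783 CPM in WT, but Col1a1 and Col1a2, the collagen I genes, carried that sum. The other 10 summed to 1527 to 3473 CPM in HRP2-KO and 2487 to 3882 CPM in WT. Of the 12, 7 were higher and 5 lower in the fit, the median being 0.16 on the log2 scale. Only the 2 collagen genes did not overlap between genotypes, and both were higher. Of all tested genes, 17.0% lay wholly above WT and 14.0% wholly below. Without HRP2-KO replicate 7, edgeR called 2 of the 12 higher and 3 lower, and 24.1% of all genes in either direction. Of the 15 macrophage markers it called 12 lower in that fit and 0 with all 6 libraries. Of the 5 endothelial markers, Pecam1, Cdh5, Tek and Emcn were below 1 CPM in every library. The other, Kdr, was at 6.54, 0.374 and 1.09 CPM in HRP2-KO libraries 6, 7 and 44. In WT libraries 10, 11 and 12 it was at 1.68, 18.4 and 4.05 CPM. In these bulk samples fewer cells of a type and less RNA per cell cannot be told apart. HRP2-KO replicate 44 also favoured short transcripts, since the shortest of 5 length groups lay 0.53 above and the longest 0.50 below the 6-library average on the log2 scale.

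For Ccne1 and each INK4 gene, a window just before an annotated start is shown here. These genes are compared throughout, and E2F acts on several cell cycle genes from such windows. Each holds the 150 bases before the start, on the gene's own strand, from RefSeq on GRCm38.p6, with matches to any of 4 E2F words on either strand in capitals: TTGGCGC is the first word, TTCCCGC is the second word, TTCGCGC is the third word and TTGCCGC is the last word. The windows belong to Ccne1 (chr7:38107491-38107640, minus strand), Cdkn2c (chr4:109666757-109666906, minus strand), Cdkn2d (chr9:21291210-21291359, minus strand), Cdkn2b (chr4:89311033-89311182, minus strand) and the upstream start of Cdkn2a (chr4:89294620-89294769, minus strand), from which the Arf transcript is made.
Ccne1: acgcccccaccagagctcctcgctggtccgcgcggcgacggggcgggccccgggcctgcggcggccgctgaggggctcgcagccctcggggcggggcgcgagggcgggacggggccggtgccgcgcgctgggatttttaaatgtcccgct
Cdkn2c: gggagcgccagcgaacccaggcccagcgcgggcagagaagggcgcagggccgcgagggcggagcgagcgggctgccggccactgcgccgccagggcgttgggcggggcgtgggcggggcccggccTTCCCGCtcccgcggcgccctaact
Cdkn2d: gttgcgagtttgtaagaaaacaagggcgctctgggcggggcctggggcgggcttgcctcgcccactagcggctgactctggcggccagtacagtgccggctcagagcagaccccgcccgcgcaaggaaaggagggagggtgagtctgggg
Cdkn2b: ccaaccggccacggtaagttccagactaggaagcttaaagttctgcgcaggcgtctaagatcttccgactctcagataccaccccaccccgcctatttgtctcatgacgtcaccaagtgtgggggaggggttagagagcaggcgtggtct
Cdkn2a: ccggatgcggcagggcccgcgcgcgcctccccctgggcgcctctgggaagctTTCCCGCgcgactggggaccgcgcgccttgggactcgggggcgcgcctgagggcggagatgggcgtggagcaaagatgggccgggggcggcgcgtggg

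The word TTCCCGC began 25 bases before the start in Cdkn2c and 98 bases before it in Cdkn2a. Of the 10 windows that RefSeq gave for 7 of the genes, these 2 held a match, and 5.47% of all 32851 windows of this length did. Cdkn2c and Cdkn2a each have another annotated start, whose windows are not printed. Those windows (chr4:109665373-109665522 and chr4:89282193-89282342) hold none of the 4 words. The windows of Ccne1, Cdkn2d and Cdkn2b are rich in G and C, at 79.3%, 67.3% and 56.0%, and hold none of these 4 words. A match here is a description of the letters and not of a bound site.

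Of the 10 genes, Cdkn2c, Ccne1, Ccne2 and Cdkn2d were higher in every HRP2-KO library than in every WT library, and Ccnd1 and Cdkn2b were lower in every HRP2-KO library. Across all tested genes the HRP2-KO values lay wholly above the WT values in 17.0% and wholly below in 14.0%. At an unadjusted p below 0.05, 4 of the 10 were higher and 1 was lower, against 12.7% and 9.10% of all tested genes. None of the 10 passed edgeR's threshold after adjustment over all genes (0 higher against 0% of all tested genes, 0 lower against 0.00730%). DESeq2 called 3 of the 10, all higher, and limma voom called 0. Of the 18284 genes that DESeq2 gave a p-value it called 8.49%, 840 higher and 713 lower. That share counts genes without an adjusted p in DESeq2 as not called, so the share among adjusted genes is higher. Without HRP2-KO replicate 7, edgeR called the same 3, Ccne1, Ccne2 and Cdkn2c, all higher. In that fit it called 24.1% of all genes, 1694 higher and 1676 lower. The median log2 fold change of the 10 genes was 0.12, against 0.015 over all tested genes.

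**Figure D1:**
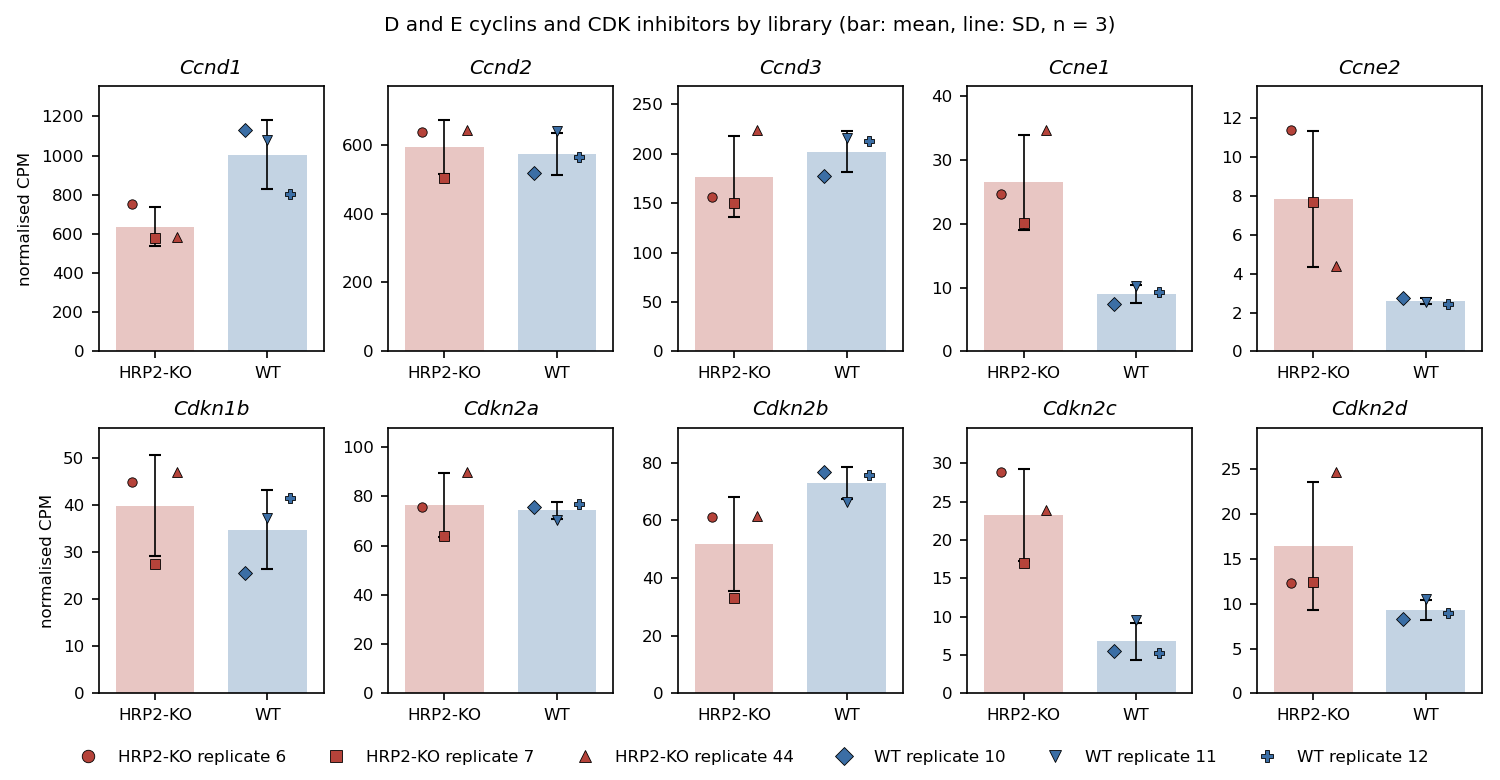
Normalised CPM of each gene (vertical axes, linear and starting at 0) in the 3 HRP2-KO and 3 WT libraries, with each point a library, bars for means and lines for SDs. Points of Ccne1, Ccne2, Cdkn2c and Cdkn2d lie higher in HRP2-KO with no overlap, those of Ccnd1 and Cdkn2b lie lower, and those of the other 4 genes overlap.

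The E cyclins were both about 3-fold higher in HRP2-KO. Ccne1, which activates CDK2 at the start of DNA replication (Entrez 12447, GRCm38.p6 chr7:38097984-38107490), was at 24.6, 20.2 and 34.6 CPM in HRP2-KO libraries 6, 7 and 44, against 7.35, 10.2 and 9.37 CPM in WT libraries 10, 11 and 12. The lowest HRP2-KO library thus stood above the highest WT library, and replicate 44 was the highest. The means were 26.5 ± 7.40 CPM in HRP2-KO and 8.98 ± 1.47 CPM in WT (SD over 3 libraries each), 2.95-fold higher (log2 fold change 1.56, standard error 0.27). The 95% interval ran from 0.90 to 2.22 and the adjusted p was 0.0966 in edgeR. The adjusted p was 0.000254 in DESeq2, and 0.0171 in edgeR once HRP2-KO replicate 7 was left out.

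Ccne2, the second E cyclin (Entrez 12448, chr4:11190433-11204779), was the least abundant of the 10 genes. It was at 11.4, 7.70 and 4.41 CPM in HRP2-KO libraries 6, 7 and 44, against 2.76, 2.54 and 2.45 CPM in WT libraries 10, 11 and 12. WT libraries lay close together, whereas HRP2-KO libraries spread more widely, with replicate 44 the lowest, the reverse of its place for Ccne1. These values rest on 89 to 233 counts a library in HRP2-KO and 52 to 56 in WT. The means were 7.83 ± 3.48 CPM in HRP2-KO and 2.58 ± 0.162 CPM in WT (SD over 3 libraries each), 3.03-fold higher (log2 fold change 1.60, standard error 0.40, edgeR adjusted p = 0.120). The adjusted p was 0.00547 in DESeq2, and 0.0427 in edgeR once HRP2-KO replicate 7 was left out. The span of Ccne2 overlaps that of Ints8, and reads in a stretch shared by both transcripts could not be told apart without strand. Whether their exons overlap was not examined. Ints8 was at 31.1 to 39.1 CPM in HRP2-KO and 26.1 to 36.0 CPM in WT.

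The fitted fold changes of the 3 D cyclins differed in sign and size. Their 95% intervals overlapped, and the differences between the genes were not tested. Ccnd1, the D cyclin most tied to growth factor signals (Entrez 12443, chr7:144929931-144939831), was the most abundant member and was lower in HRP2-KO. It was at 752, 578 and 583 CPM in HRP2-KO libraries 6, 7 and 44, against 1129, 1081 and 802 CPM in WT libraries 10, 11 and 12. The highest HRP2-KO library and the lowest WT library were close to each other. The means were 638 ± 98.8 CPM in HRP2-KO and 1004 ± 176 CPM in WT (SD, n = 3 each), or 0.635 times the WT level (log2 fold change -0.66, standard error 0.24, edgeR adjusted p = 0.201). Its 95% interval, from -1.24 to -0.068, left out 0 before adjustment only. LTO1, which overlaps its span, was at 12.5 to 22.0 CPM in HRP2-KO and 15.9 to 17.0 CPM in WT.

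Ccnd2 (Entrez 12444, chr6:127125162-127152188), the D cyclin that is also prominent in blood cells, was at 636, 503 and 642 CPM in HRP2-KO libraries 6, 7 and 44, against 518, 639 and 564 CPM in WT libraries 10, 11 and 12. The groups overlapped almost fully. Its log2 fold change was 0.050 with a 95% interval from -0.46 to 0.56 (edgeR adjusted p = 0.900), and its sign turned with the TPM scale and without WT replicate 10 or HRP2-KO replicate 44. The Ccnd2 transcript, of about 6005 bases, is in the longest length group, which was low in HRP2-KO replicate 44. With offsets for transcript length, a check chosen after seeing the data, its log2 fold change was 0.28. Ccnd3, the most broadly expressed D cyclin (Entrez 12445, chr17:47505051-47599689), was at 156, 150.2 and 224 CPM in HRP2-KO libraries 6, 7 and 44, against 178, 216 and 212 CPM in WT libraries 10, 11 and 12. HRP2-KO replicate 44 held the highest value and the other HRP2-KO libraries the lowest. The log2 fold change was -0.20 (95% interval -0.74 to 0.35, edgeR adjusted p = 0.611). Ccnd3 lies on the chromosome of the targeted gene, 8.48 Mb away, and Bysl, which overlaps its span, was at 38.6 to 71.5 CPM in HRP2-KO and 32.4 to 38.3 CPM in WT.

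Among the INK4 inhibitors, Cdkn2c (p18Ink4c, Entrez 12580, chr4:109660876-109666756) had the largest fold change of the 10 genes in the fit of all 6 libraries. Ccne2 was ahead of it without HRP2-KO replicate 44, at a log2 fold change of 1.88 against 1.74, and level with it without WT replicate 10. Cdkn2c was at 28.8, 17.0 and 23.9 CPM in HRP2-KO libraries 6, 7 and 44, against 5.57, 9.56 and 5.27 CPM in WT libraries 10, 11 and 12. The groups did not overlap, and HRP2-KO replicate 7 was nearest to WT. The means were 23.2 ± 5.97 CPM in HRP2-KO and 6.80 ± 2.39 CPM in WT (SD over 3 libraries each), 3.41-fold higher (log2 fold change 1.77, standard error 0.34, edgeR adjusted p = 0.0982). The 95% interval of that change ran from 0.95 to 2.59. The adjusted p was 0.000268 in DESeq2, and 0.0183 in edgeR once HRP2-KO replicate 7 was left out. Cdkn2c thus stood higher beside the E cyclins, although its product inhibits the D cyclin kinases.

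Cdkn2d (p19Ink4d, Entrez 12581, chr9:21288459-21291421), the other INK4 gene that is known to vary with the cell cycle, was at 12.2, 12.4 and 24.6 CPM in HRP2-KO libraries 6, 7 and 44, against 8.29, 10.5 and 8.99 CPM in WT libraries 10, 11 and 12. HRP2-KO replicate 44 was far above the rest, and the other HRP2-KO libraries were just above the highest WT library. The fitted difference was 1.77-fold (log2 fold change 0.83, standard error 0.34, edgeR adjusted p = 0.226). It was 0.40 on the log2 scale without HRP2-KO replicate 44 and 0.55 with offsets for transcript length, a check chosen after seeing the data. Its transcript of about 1222 bases is in the shortest length group, the group that was high in that library. Transcripts of Cdkn2a, Cdkn2b and Cdkn2c are in the same group. With the same offsets the log2 fold change was 1.61 for Cdkn2c, -0.73 for Cdkn2b and -0.35 for Cdkn2a.

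Cdkn2a and Cdkn2b are neighbours on chromosome 4, 11670 bases apart, and are known to be silenced together by Polycomb proteins in young cells and to accumulate in ageing cultures. Cdkn2b (p15Ink4b, Entrez 12579, chr4:89306289-89311032) was at 61.1, 32.9 and 61.4 CPM in HRP2-KO libraries 6, 7 and 44, against 76.7, 66.4 and 75.7 CPM in WT libraries 10, 11 and 12. All HRP2-KO libraries were lower than all WT libraries, but replicate 7 alone was far lower. The means were 51.8 ± 16.3 CPM in HRP2-KO and 72.9 ± 5.68 CPM in WT (SD, n = 3 each), with a log2 fold change of -0.49 (95% interval -1.14 to 0.16, edgeR adjusted p = 0.315). Without HRP2-KO replicate 7 it was -0.21, and over 16 alternatives it ran from -0.80 to -0.21. Cdkn2a (Entrez 12578, chr4:89274473-89294619), 1 row of the table for both p16Ink4a and p19Arf, was at 75.8, 64.0 and 89.8 CPM in HRP2-KO libraries 6, 7 and 44, against 75.7, 70.2 and 76.9 CPM in WT libraries 10, 11 and 12. The HRP2-KO values surrounded the WT values. Its log2 fold change of 0.043 (95% interval -0.39 to 0.47, edgeR adjusted p = 0.897) had no stable sign. The counts of the row do not separate its 2 products.

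Cdkn1b, which encodes p27Kip1 (Entrez 12576, chr6:134920401-134925525), was at 45.0, 27.5 and 47.0 CPM in HRP2-KO libraries 6, 7 and 44, against 25.5, 37.3 and 41.6 CPM in WT libraries 10, 11 and 12. The groups overlapped, with 1 low library in each. The log2 fold change was 0.19 with a 95% interval from -0.50 to 0.89 (edgeR adjusted p = 0.695). That interval leaves room for a rise or a fall of moderate size. It does not reach the fold of Ccne1, although the difference between the 2 genes was not tested.

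**Figure D2:**
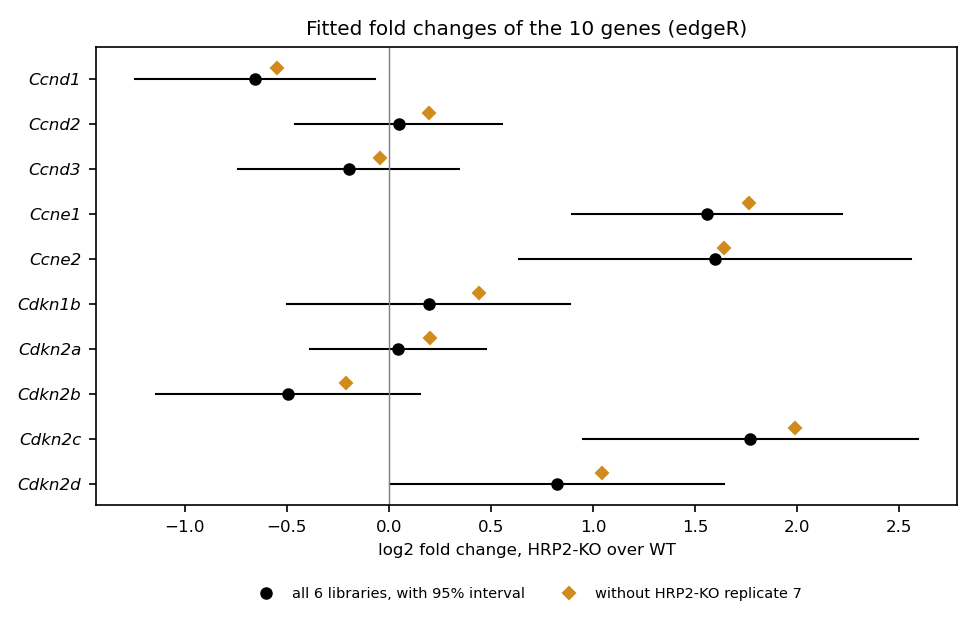
Fitted log2 fold changes of HRP2-KO over WT (horizontal axis) for the 10 genes with 95% intervals from all 6 libraries, and the fitted values without HRP2-KO replicate 7 as diamonds. Intervals of Ccne1, Ccne2 and Cdkn2c lie above 0.60, while those of Ccnd2, Ccnd3, Cdkn1b, Cdkn2a and Cdkn2b cross 0.

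HRP2-KO replicate 7 held the lowest HRP2-KO value for 8 of the 10 genes, the exceptions being Ccne2 (lowest in replicate 44) and Cdkn2d (lowest in replicate 6). For Ccne1 and Cdkn2c this placed it nearest to WT, and for Ccnd1 and Cdkn2b farthest from it. Its macrophage sum of 14023 CPM fell inside the range of the WT libraries, and the 10 proliferation markers summed to 441 CPM there, against 792 and 1009 CPM in HRP2-KO replicates 6 and 44 and 153 to 222 CPM in WT. The part of macrophage RNA in these differences was not tested. Without that library the log2 fold changes were 1.77 for Ccne1, 1.64 for Ccne2, 1.99 for Cdkn2c and -0.55 for Ccnd1.

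Levels of different genes were set side by side in TPM, which corrects for transcript length. In HRP2-KO the order was Ccnd1 at 318 ± 88.9 TPM, Ccnd2 at 182 ± 33.0, Ccnd3 at 178 ± 22.3, Cdkn2a at 164 ± 16.0, Cdkn2b at 71.1 ± 23.8, Cdkn1b at 31.1 ± 8.68, Cdkn2c at 27.2 ± 9.29, Ccne1 at 25.2 ± 4.31, Cdkn2d at 24.0 ± 6.61 and Ccne2 at 5.53 ± 3.12 TPM (SD, n = 3). The neighbours from Ccnd2 to Cdkn2a, and those from Cdkn1b to Cdkn2d, overlapped in range. In WT, Ccnd1 led at 587 ± 103 TPM, before Ccnd3 at 247 ± 38.2, Ccnd2 at 211 ± 35.3, Cdkn2a at 193 ± 6.76, Cdkn2b at 119 ± 4.82, Cdkn1b at 32.7 ± 9.01, Cdkn2d at 16.7 ± 3.02, Cdkn2c at 10.7 ± 4.09, Ccne1 at 10.4 ± 2.26 and Ccne2 at 2.11 ± 0.104 TPM (SD, n = 3). There too the ranges from Ccnd3 to Cdkn2a overlapped from neighbour to neighbour, as did those from Cdkn2d to Ccne1. D cyclin transcripts were thus far more abundant than E cyclin transcripts in both genotypes.

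Shares of each family were taken in TPM, with no test. Sums in TPM are read against the median gene, which lay at -0.21 in the fit on log2(TPM + 1). Ccne1 made up 75.7%, 78.5% and 92.2% of the summed E cyclins in HRP2-KO libraries 6, 7 and 44, and 78.6%, 85.1% and 84.5% in WT libraries 10, 11 and 12, so the genotypes overlapped. The summed D cyclins stood at 813, 612 and 609 TPM in HRP2-KO libraries 6, 7 and 44, against 1004, 1196 and 935 TPM in WT libraries 10, 11 and 12. Ccnd2 made up 27.1%, 26.3% and 27.1% of that sum in HRP2-KO libraries 6, 7 and 44, and 17.7%, 20.7% and 22.2% in WT libraries 10, 11 and 12, so its share was higher in each HRP2-KO library although its level was not. The Ccnd1 share was 46.5 ± 5.84% in HRP2-KO and 56.0 ± 5.76% in WT (SD, n = 3 each), with overlapping values.

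The summed INK4 genes were at 286 ± 49.6 TPM in HRP2-KO and 339 ± 11.2 TPM in WT (SD, n = 3 each). The Cdkn2a row in this sum counts p19Arf along with p16Ink4a. The sum and the shares of it are therefore not of INK4 transcripts alone. The genotypes overlapped in this sum, with HRP2-KO replicate 6 at 333 TPM and WT replicate 10 at 326 TPM. Within that sum Cdkn2c made up 9.35 ± 1.63% in HRP2-KO and 3.15 ± 1.17% in WT, and Cdkn2b made up 24.4 ± 4.16% in HRP2-KO and 35.1 ± 1.47% in WT. The ratio of Cdkn2c to Cdkn2b was 0.395, 0.406 and 0.352 in HRP2-KO libraries 6, 7 and 44, against 0.0747, 0.134 and 0.0635 in WT libraries 10, 11 and 12. HRP2-KO replicate 7, which was the lowest HRP2-KO library for both genes, did not stand apart in their ratio. The Cdkn2a share was similar, at 57.8 ± 4.98% in HRP2-KO and 56.9 ± 0.515% in WT.

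**Figure D3:**
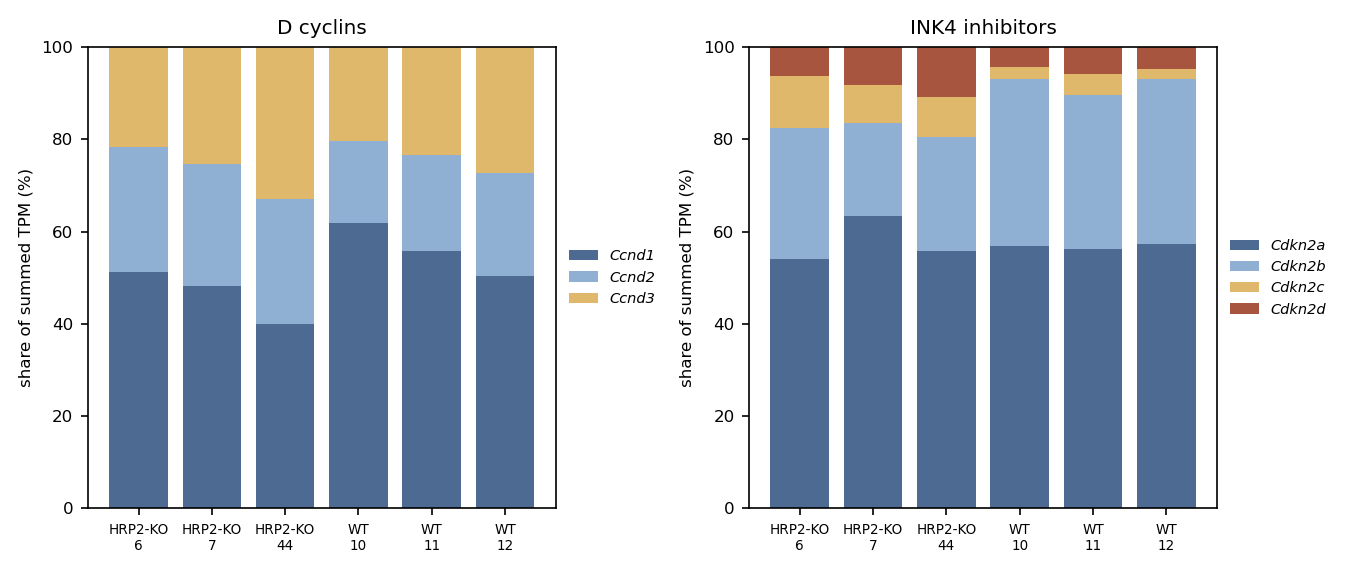
Share of each gene in the summed TPM (vertical axes, percent) of the D cyclins and of the INK4 inhibitors, with 1 stacked bar a library. The Ccnd2 share is 26.3% to 27.1% in HRP2-KO and 17.7% to 22.2% in WT, and the Cdkn2c share is 8.15% to 11.2% in HRP2-KO and 2.27% to 4.48% in WT. The Cdkn2a row counts p19Arf along with p16Ink4a.

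Genes that work with the cyclins were read from a list of 25 G1/S partners. All 25 were tested, and 9 were higher and 4 lower at an unadjusted p below 0.05 (12.7% and 9.10% of all tested genes), while edgeR called 0 after adjustment. DESeq2 called 5 higher and 1 lower (8.49% of its genes in all), and edgeR without HRP2-KO replicate 7 called 9 higher and 3 lower (24.1% in all). The 3 lower in that fit were Cdkn1c, Rbl2 and Lin52 (edgeR adjusted p = 0.0162, 0.0277 and 0.0429). The catalytic partner of the E cyclins, Cdk2, was at 33.1, 22.3 and 28.3 CPM in HRP2-KO libraries 6, 7 and 44, against 14.7, 15.9 and 14.5 CPM in WT libraries 10, 11 and 12. The groups did not overlap, and Cdk2 was 1.86-fold higher (log2 fold change 0.89, standard error 0.21, edgeR adjusted p = 0.111). Of the partners of D cyclins, Cdk4 was at 367, 165 and 499 CPM in HRP2-KO libraries 6, 7 and 44, against 98.0, 121 and 166 CPM in WT libraries 10, 11 and 12. HRP2-KO replicate 7 fell among the WT values (adjusted p = 0.162 in edgeR, and 0.0185 without that library). Cdk6 was at 44.6 to 72.9 CPM in HRP2-KO and 43.7 to 93.8 CPM in WT.

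Ccna2, the cyclin that follows E cyclins in S phase, had the smallest p of this list. It was at 80.9, 35.8 and 102.6 CPM in HRP2-KO libraries 6, 7 and 44, against 5.08, 13.9 and 12.3 CPM in WT libraries 10, 11 and 12 (log2 fold change 2.81, standard error 0.54, edgeR adjusted p = 0.0982). E2f8 and E2f7, atypical E2F factors that repress E2F targets late in S phase, were 4.93-fold and 4.62-fold higher (edgeR adjusted p = 0.109 and 0.114). Rb1, the retinoblastoma pocket protein that D cyclin kinases act on, was at 42.6, 29.3 and 22.6 CPM in HRP2-KO libraries 6, 7 and 44, against 76.6, 59.2 and 62.3 CPM in WT libraries 10, 11 and 12. Every HRP2-KO library was lower than every WT library (log2 fold change -1.07, standard error 0.27, edgeR adjusted p = 0.123). Mnat1, an assembly factor of the CDK-activating kinase, was 1.57-fold higher (edgeR adjusted p = 0.158). With HRP2-KO replicate 7 left out, the edgeR adjusted p was 0.0162 for Ccna2, 0.0194 for Cdk2, 0.0210 for E2f8, 0.0327 for E2f7, 0.0410 for Mnat1 and 0.0586 for Rb1.

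Proteins that act in the turnover of cyclins and their inhibitors, not all of them by degrading, formed a second list, of 15 genes, all tested. At an unadjusted p below 0.05, 5 were higher and 2 lower (12.7% and 9.10% of all tested genes). edgeR called 0 after adjustment, DESeq2 called 4 higher and 1 lower (8.49% of its genes in all), and edgeR without HRP2-KO replicate 7 called 5 higher and 1 lower (24.1% in all). Skp2, which marks p27Kip1 for degradation, was at 16.0, 8.29 and 15.5 CPM in HRP2-KO libraries 6, 7 and 44, against 2.47, 4.62 and 4.61 CPM in WT libraries 10, 11 and 12. Its groups did not overlap, and it was 3.40-fold higher (edgeR adjusted p = 0.110). Its cofactor Cks1b was at 45.3, 27.4 and 82.2 CPM in HRP2-KO libraries 6, 7 and 44, against 11.8, 14.5 and 19.3 CPM in WT libraries 10, 11 and 12, 3.39-fold higher (edgeR adjusted p = 0.118). Cks2, its close relative, was 4.76-fold higher (edgeR adjusted p = 0.108). Rnf123, part of another ligase for p27Kip1, was at 31.7 to 38.6 CPM in HRP2-KO and 49.5 to 51.9 CPM in WT (edgeR adjusted p = 0.137). Ubac1, of the same ligase, went the other way, at a log2 fold change of 0.86 with overlapping groups (edgeR adjusted p = 0.236). It was 2.32-fold higher without HRP2-KO replicate 7 (edgeR adjusted p = 0.0185). Usp28 and Cops5, which remove ubiquitin and the ubiquitin-like NEDD8 tag, were 1.58-fold and 1.48-fold higher (edgeR adjusted p = 0.171 and 0.200). With HRP2-KO replicate 7 left out, the edgeR adjusted p was 0.0160 for Cks2, 0.0182 for Cks1b, 0.0189 for Skp2, 0.0314 for Cops5, 0.0428 for Rnf123 and 0.0644 for Usp28.

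The third list held 17 factors that act on the Cdkn2a and Cdkn2b locus, with 1 gene higher and 1 lower at an unadjusted p below 0.05 (12.7% and 9.10% of all tested genes), 0 called by edgeR after adjustment, and 1 in each direction called by DESeq2 (8.49% of its genes in all) and by edgeR without HRP2-KO replicate 7 (24.1% in all). Ezh2, the Polycomb methyltransferase, was at 36.9, 16.3 and 46.0 CPM in HRP2-KO libraries 6, 7 and 44, against 5.03, 9.65 and 7.30 CPM in WT libraries 10, 11 and 12. It was 4.51-fold higher (edgeR adjusted p = 0.107). Cbx7, the Polycomb subunit that reads its mark, was at 3.32, 8.34 and 2.93 CPM in HRP2-KO libraries 6, 7 and 44, against 16.9, 16.2 and 11.3 CPM in WT libraries 10, 11 and 12. It was 3.04-fold lower (edgeR adjusted p = 0.148), and 4.59-fold lower once HRP2-KO replicate 7 was left out (edgeR adjusted p = 0.0160). Ezh2 was 5.82-fold higher in that fit (edgeR adjusted p = 0.0152). Neither set of values overlapped between genotypes, and in both HRP2-KO replicate 7 was nearest to WT. The log2 fold changes of Id1, Suz12, Ets1 and Tbx2, the other leading genes of the list, were -0.79, 0.31, -0.22 and 0.69, all with intervals that include 0.

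**Figure D4:**
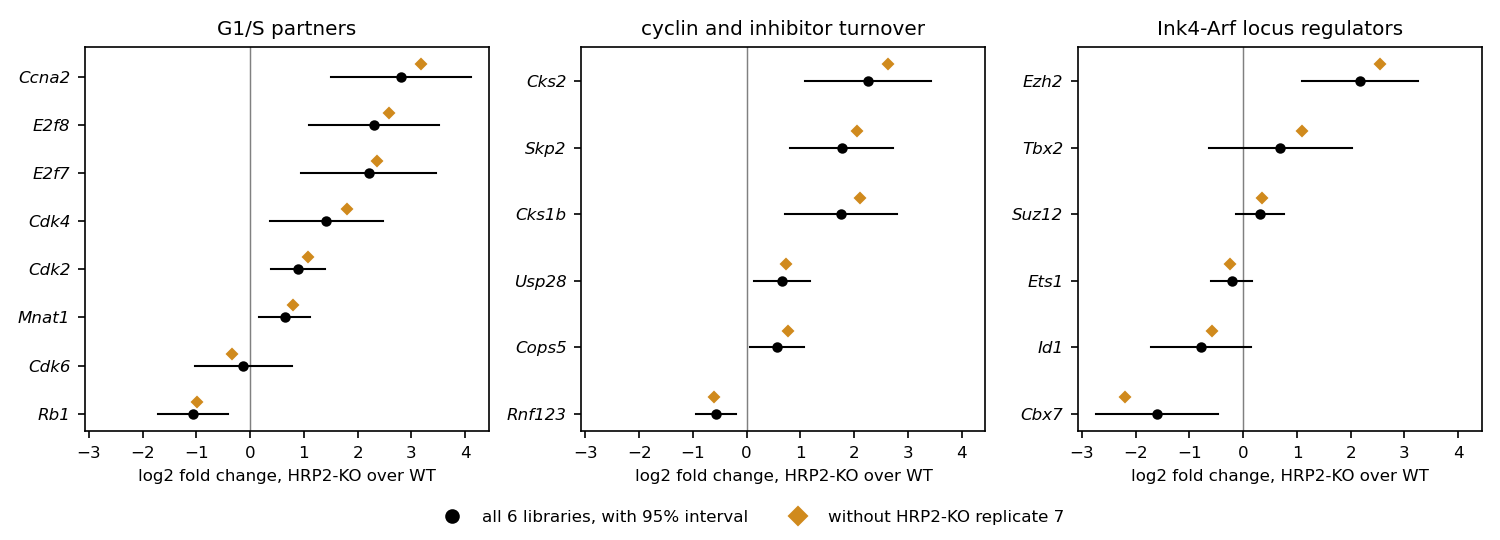
Fitted log2 fold changes of HRP2-KO over WT (horizontal axes) with 95% intervals for the leading genes of the 3 pathway lists, and values without HRP2-KO replicate 7 as diamonds. Ccna2, at 2.81, is the highest and Cbx7, at -1.61, the lowest of the genes plotted. Cdkn1c, at -2.48, is a G1/S partner that is not plotted.

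Across the 6 libraries the tested genes closest to Ccne1 were Hacd1, Gen1, Chaf1a and Cdr2l, with root-mean-square differences of centred log2 CPM of 0.10, 0.12, 0.13 and 0.14, against a median of 0.89 over all tested genes. Hacd1 was at 36.1, 25.9 and 47.5 CPM in HRP2-KO libraries 6, 7 and 44, against 9.82, 13.5 and 10.8 CPM in WT libraries 10, 11 and 12. The genes closest to Cdkn2c were Fanci, Mcf2l, Col5a2 and Slc6a9, at 0.14, 0.18, 0.19 and 0.20, against a median of 1.02. Among the 10 genes themselves Ccne1 and Cdkn2c differed by 0.33 on this measure and Ccnd1 and Cdkn2c by 1.25. Since 6 libraries in 2 groups define the measure, many genes that differ between the groups lie close.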

How the data were processed

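RNA-seq of 3 HRP2-KO and 3 WT samples was analysed from 1 table of 18853 genes, with groups taken from the genotype labels. Reads were aligned with BWA to GRCm38.p6, per the submitters' processing notes; no source used here names the counting program, the annotation or the strand setting. The authors deposited estimated counts per gene, which were rounded to whole numbers. The deposited TPM and FPKM values are scaled by the authors for transcript length and library size, and FPKM served only to derive transcript length. The 6 normalized count columns and 24 average columns were not used.

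Genes were filtered with filterByExpr (minimum count 10, minimum total 15), scaled with TMM and tested with edgeR 4.0.16 in R 4.3.3 (glmQLFit, glmQLFTest, genotype alone, two-sided, Benjamini-Hochberg over 13696 genes, threshold 0.05). The standard error is the log2 fold change divided by the square root of F, and 95% intervals use the fit's degrees of freedom. Depth was 20184500 to 20680800 counts a library, and 3 counts correspond to 0.139 to 0.160 CPM (counting error only). Alternatives tried: upper-quartile or RLE factors, no filter or 1 CPM in 3 libraries, DESeq2 1.42.0, limma 3.58.1 (voom, and a trend fit on TPM logged with a pseudocount of 1 or 0.1, where TPM reached 1 in 3 libraries), robust dispersion and each replicate left out. Offsets by transcript length (20 groups) were added after seeing the data. The edgeR step was also run on simulated data, and the outcome is not reported here.

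The genes and lists were chosen with earlier results of these data known. Named are the 10 genes, Hdgfl2, Igf2, Cdk2, Cdk4, Cdk6, overlapping genes, the 6 genes with the smallest p of each pathway list and the 4 genes closest to the leading cyclin and inhibitor. Igf2, the overlapping genes, Cdkn1c, Rbl2, Lin52 and Ubac1 were added to that rule. The 6 lymphoid and granulocyte markers found summed to at most 2.22 CPM in any library. Positions and sequences are from RefSeq on GRCm38.p6. Figures were drawn with matplotlib 3.10.9.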

Additional observations from a re-analysis of the deposited data

How the results depend on the processing

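No paired analysis was possible because the groups share no replicate number. Of 176 alternative values for the 10 genes and Hdgfl2, 155 kept direction and side of the threshold, 11 came past it and 10 changed sign. The sign changed for Ccnd2 with limma on TPM (-0.21 with either pseudocount), without WT replicate 10 (-0.018) and without HRP2-KO replicate 44 (-0.019). The range over single libraries left out was -0.019 to 0.20 for Ccnd2 and -0.096 to 0.20 for Cdkn2a. The sign also changed for Cdkn1b on TPM (-0.065 with a pseudocount of 1, -0.067 with 0.1), and for Cdkn2a on TPM (-0.24 with either), without HRP2-KO replicate 44 (-0.096) and with transcript-length offsets (-0.35). On the TPM scale the median gene lay at -0.21 and -0.24, so such changes are read against that shift, and 6 higher against 36 lower genes were called with a pseudocount of 1. Over all tested genes, 1 was called by edgeR, 1553 by DESeq2, 37 by voom, 42 and 27 on log2(TPM + 1) and log2(TPM + 0.1), and 0 to 3370 with 1 library left out, the lowest without HRP2-KO replicate 44 and the highest without HRP2-KO replicate 7. DESeq2 called 3 of the 10 genes, 6 G1/S partners, 5 turnover genes and 2 locus regulators, where edgeR called 0. With 1 library left out, edgeR called 0 to 3, 0 to 12, 0 to 6 and 0 to 2 of them, the highest each time without HRP2-KO replicate 7. The cause was not tested. Ccne2 rests on as few as 52 counts in a library.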
